A study of Mus musculus with 8 samples.

Results

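The family of miR-148a, miR-148b and miR-152, 3 microRNAs with a common seed, was followed in mouse liver during exposure to carbon tetrachloride (CCl4), a hepatotoxin used to model liver fibrosis. The members were taken by their assay names, a rule that uses no measured values. They account for 3 of the 381 assays on the card. After 4 weeks of CCl4, miR-148a was at 35.5% ± 2.96 (SD, n = 2) of the untreated mean and miR-152 at 42.7% ± 3.34 (SD, n = 2). miR-148b was at 155% ± 53.7 (SD, n = 2), a difference from untreated that did not pass the test.

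Female mice of strain C57B6, 4 weeks old when treatment began, were either left untreated or given CCl4 in corn oil by intraperitoneal injection for 1, 4 or 8 weeks. The labels give a dose of 1 mg/kg and biweekly injections, whereas the methods of the study give the dose in ml/kg with 2 injections a week, so the absolute dose is uncertain. Nothing in the labels says that untreated mice received corn oil alone, so CCl4 and its vehicle cannot be told apart. Each of the 4 groups has 2 replicates, each run on its own TaqMan rodent microRNA card, a plate of PCR wells that each quantify 1 small RNA. Whether the 2 replicates came from separate mice is not stated in the labels, so p-values measure the spread between cards, which may be technical. The numbers of mice in the series' design text also differ from 2 in some groups.

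MicroRNAs guide silencing complexes to messenger RNAs, largely through a short stretch near their 5′ end called the seed, and members of a family share that seed and hence many predicted targets. Messenger RNAs reported as targets of this family include the DNA methyltransferase Dnmt1, and for miR-148a also the LDL receptor and the cholesterol exporter Abca1. miR-148a is known as an abundant microRNA of the liver and of hepatocytes. The mature sequences explain why the 3 are treated as a family, and they are shown 5′ to 3′ from RefSeq, with the seed (bases 2 to 8) in capitals.
miR-148a-3p: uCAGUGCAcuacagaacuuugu
miR-148b-3p: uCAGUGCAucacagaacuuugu
miR-152-3p: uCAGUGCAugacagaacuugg

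All 3 members matched RefSeq entries, and the card's names, which carry no arm, were read as the 3p arm that the older names denote. The seed CAGUGCA stood at bases 2 to 8 of 3 of the 1679 mouse mature sequences in the RefSeq table, which are the family itself. The same 7 letters occupied bases 1 to 7 of 7 others, among them miR-130a-3p, whose seed is therefore a different one. Counting from 1 at the 5′ end, miR-148a and miR-148b were identical at 20 of 22 bases and differed by C9U and U10C. miR-148a and miR-152 were identical at 18 of 21 compared bases and differed by C9U, U10G and U20G. miR-148b and miR-152 differed by C10G and U20G and were identical at 19 of 21. How far an assay for 1 member also detects another was not tested.

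The members come from separate chromosomes. In GRCm38.p6, mature miR-148a-3p lies at chr6:51269829-51269850 on the minus strand, within a span annotated as the predicted gene Gm38821 and between the protein-coding genes Npvf and Nfe2l3. miR-148b-3p lies at chr15:103285185-103285206 on the plus strand, within the span of Copz1. miR-152-3p lies at chr11:96850439-96850459 on the plus strand, within the span of Copz2, the paralogue of Copz1. Both encode zeta subunits of the coatomer, the coat of vesicles that travel between the Golgi and the endoplasmic reticulum. Whether each hairpin lies in an intron or exon of these genes was not analysed here.

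The cards were read as threshold cycles (Ct), the cycle at which the fluorescence of a well crosses a set level, so that 1 cycle less stands for roughly 2 times as much template. Between 193 and 235 of the 381 assays had a Ct on each card. The mean Ct of the 149 assays that stayed below 35 throughout ran from 27.5 on the first 8-week card to 29.8 on the second 4-week card. Values were therefore centred, by taking an assay's Ct away from this mean of its card, which gives a log2 scale on which higher means more RNA. Of 166 assays tested, all 3 members were among them and had a Ct on all 8 cards. miR-122, the defining microRNA of hepatocytes, had the ninth lowest mean Ct of the 166, 22.8. With 2 cards a group, an exact permutation test of a single time against untreated cannot go below p = 0.333, so single times were tested with limma, which borrows the spread from all 166 assays.

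miR-148a was the member with the lowest Ct. It was read at Ct 26.01 and 25.88 on the untreated cards, 27.21 and 27.28 after 1 week, 27.61 and 28.96 after 4 weeks, and 25.77 and 27.39 after 8 weeks. Its mean Ct of 27.0 ranked 44 from the lowest among the 166. Its centred values were 2.34 and 2.11 untreated, 1.56 and 1.32 after 1 week, 0.64 and 0.81 after 4 weeks, and 1.71 and 1.49 after 8 weeks. All 6 treated cards lay below both untreated cards, with the 2 cards of 4 weeks lowest. Relative to the untreated mean, the level was 58.1% ± 6.77 (SD, n = 2) after 1 week, 35.5% ± 2.96 (SD, n = 2) after 4 weeks and 65.2% ± 7.17 (SD, n = 2) after 8 weeks.

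At 4 weeks miR-148a fell by 1.49 on the log2 scale (SE 0.28, 95% interval -2.14 to -0.85, limma adjusted p = 0.00758), a direction that all scalings of the cards gave except U6 alone, at 0.01. Among all 166 assays, 16.9% passed the test as lower at this time and 13.3% as higher (28 and 22 assays, against 11 and 45 with the mean of 3 control RNAs and 2 and 80 with U6 alone). At 1 week the log2 difference of -0.79 (95% interval -1.44 to -0.14) did not pass after adjustment (limma adjusted p = 0.0640), with 14.5% of assays past the test as lower and 18.1% as higher. These are 24 and 30 assays, against 33 and 18 with the geometric mean of all determined assays, 124 and 2 with U6 alone and 0 and 81 with snoRNA202 alone. The 8-week difference of -0.62 (95% interval -1.27 to 0.02) did not pass either (limma adjusted p = 0.201), at a time when 0.602% of assays passed as lower and 2.41% as higher. The 1-week difference passed with a mean Ct below 32 (limma adjusted p = 0.0489) and with a trend in eBayes (0.0306), in a range of 0.0306 to 0.3996 over 12 alternatives. With U6 alone it passed at -3.17 (limma adjusted p = 4.4e-05) and with snoRNA202 alone it turned to 0.61, and the 8-week difference turned to 0.49 with U6 alone. The 4-week call held with each card left out in turn (log2 differences of -1.62 to -1.41, adjusted p 0.0112 to 0.0419). It was lost with 3 of 12 alternatives, namely the mean of 3 control RNAs, no normalization and undetermined wells set to Ct 40 (adjusted p 0.00224 to 0.0863 over the 12). Of the 3 control RNAs taken singly, U6 and snoRNA202 also ended it (limma adjusted p = 0.989 and 0.0658) and snoRNA135 did not (0.0308).

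miR-152 was placed much as miR-148a was, at a higher Ct. Its Ct values were 27.86 and 27.69 untreated, 29.31 and 28.95 after 1 week, 29.01 and 30.69 after 4 weeks, and 27.56 and 29.55 after 8 weeks. The mean of 28.8 ranked 74 of the 166. Centred, it stood at 0.49 and 0.30 untreated, -0.54 and -0.35 after 1 week, -0.76 and -0.92 after 4 weeks, and -0.08 and -0.67 after 8 weeks. Again the 6 treated cards lay below both untreated cards, and the first 8-week card was the nearest of them to untreated. The level was 55.9% ± 5.25 (SD, n = 2) of the untreated mean after 1 week, 42.7% ± 3.34 (SD, n = 2) after 4 weeks and 60.0% ± 17.3 (SD, n = 2) after 8 weeks.

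By limma, miR-152 fell by 1.23 at 4 weeks (SE 0.31, 95% interval -1.95 to -0.51, adjusted p = 0.0204), with the sign turned only by scaling to U6 alone, at 0.28. Its differences of -0.84 at 1 week (95% interval -1.56 to -0.13, limma adjusted p = 0.0682) and -0.77 at 8 weeks (95% interval -1.49 to -0.05, limma adjusted p = 0.172) did not pass. With U6 alone the 1-week difference passed at -3.22 (limma adjusted p = 3.55e-05) and the 8-week difference turned to 0.35. With snoRNA202 alone the 1-week difference turned to 0.55. The 4-week call was lost without untreated replicate 1 (-1.17, limma adjusted p = 0.0849), without untreated replicate 2 (-1.33, limma adjusted p = 0.0654) and without 4-week replicate 2 (-1.15, limma adjusted p = 0.0844), among adjusted p values of 0.0200 to 0.0849 over the 8 cards left out. Among the 12 alternatives, 4 lost it, including the geometric mean of the Ct values of all determined assays (-1.44, limma adjusted p = 0.0564, in a range of 0.0122 to 0.261 over the 12). The methods of the study name the geometric mean of each plate. They do not say over which assays it was taken or whether it was taken of Ct values, so this alternative may differ from theirs. Each of U6, snoRNA135 and snoRNA202 taken singly ended it too (limma adjusted p = 0.789, 0.0819 and 0.176).

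miR-148b was the member with the highest Ct and the widest spread between replicate cards. Its Ct values of 32.60 and 32.01 untreated, 32.67 and 33.00 after 1 week, 32.16 and 32.96 after 4 weeks, and 31.60 and 32.66 after 8 weeks averaged 32.5, rank 143 of 166. The SD between replicates, pooled over the groups on the centred scale, was 0.342, against 0.153 for miR-148a and 0.237 for miR-152. Centred values were -4.25 and -4.02 untreated, -3.90 and -4.40 after 1 week, -3.91 and -3.19 after 4 weeks, and -4.12 and -3.78 after 8 weeks. Treated cards lay on both sides of the untreated ones, 1 below both and 4 above both.

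On the centred scale, none of the differences of miR-148b from untreated passed. They were -0.02 at 1 week (95% interval -0.85 to 0.81, limma adjusted p = 0.979), 0.59 at 4 weeks (95% interval -0.24 to 1.42, limma adjusted p = 0.240) and 0.19 at 8 weeks (95% interval -0.64 to 1.02, limma adjusted p = 0.772). At 4 weeks the value was -0.26 with no normalization, and with the mean of 3 control RNAs it passed as higher (1.23, limma adjusted p = 0.0325, in a range of 0.0325 to 0.872 over 11 alternatives). With U6 alone it passed as lower at 1 week (-2.40, limma adjusted p = 0.00178) and as higher at 4 weeks (2.10, limma adjusted p = 0.0116), and with snoRNA202 alone as higher at 1 week (1.38, limma adjusted p = 0.0151). The sign also turned with snoRNA135 alone at 1 week, at 0.25, and with quantile normalization at 8 weeks, at -0.11.

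**Figure D1:**
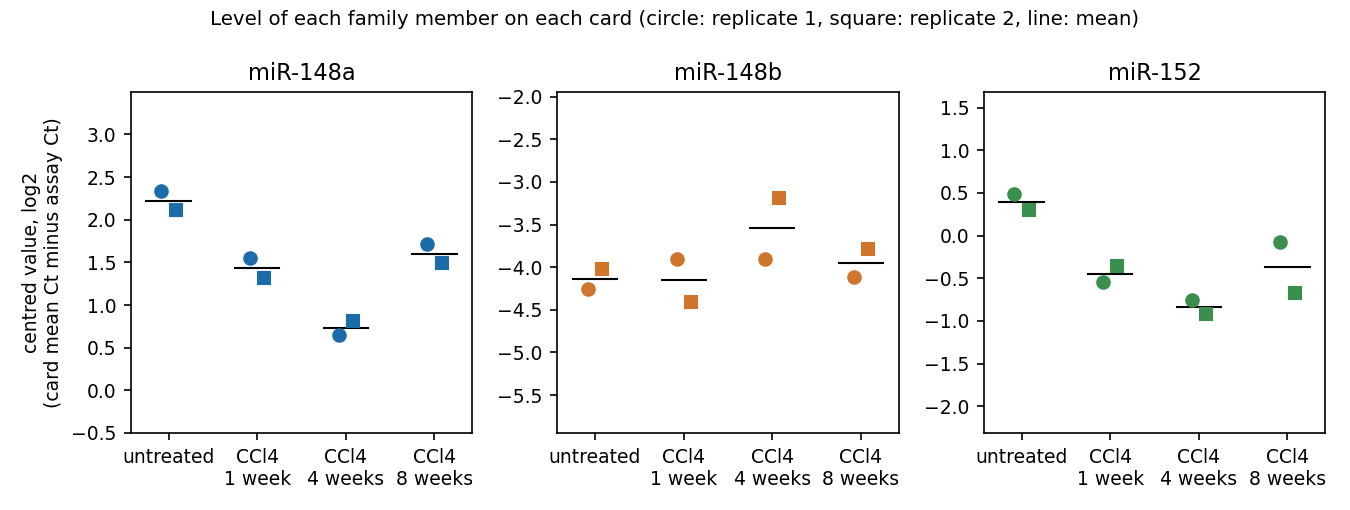
Centred value of miR-148a, miR-148b and miR-152 on each of the 8 cards (vertical axis, log2, card mean Ct minus assay Ct) by group (horizontal axis), with replicate 1 as a circle, replicate 2 as a square and the group mean as a line. The 6 treated cards lie below both untreated cards for miR-148a and miR-152 and on both sides of them for miR-148b.

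In order of level, miR-148a ran from untreated through 8 weeks and 1 week to 4 weeks, and no neighbours in that order differed past the threshold. The neighbouring differences had limma adjusted p values of 0.201, 0.646 and 0.0730. miR-152 took the same order, again with no neighbours past the threshold (limma adjusted p of 0.172, 0.834 and 0.324). For miR-148b the order from the highest was 4 weeks, 8 weeks, untreated and 1 week, with limma adjusted p of 0.555, 0.772 and 0.979 between neighbours.

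On the centred scale, differences between the times of treatment passed for no member. From 1 to 4 weeks the log2 difference was -0.71 for miR-148a, 0.61 for miR-148b (limma adjusted p = 0.188) and -0.39 for miR-152, in a comparison in which 47.0% of the 166 assays passed. These are 78 assays, against 150 with U6 alone, and the count fell with any card left out, steeply for some. Scaling to the mean of 3 control RNAs turned the values of miR-148a and miR-152 to 0.18 and 0.50, and that of miR-148b passed under it (1.49, limma adjusted p = 0.00920, in a range of 0.00920 to 0.849 over 11 alternatives). Quantile normalization passed miR-148a from 1 to 4 weeks (-0.91) and from 4 to 8 weeks (1.13), and a trend in eBayes passed it from 1 to 4 weeks (-0.71). With U6 alone all 3 members passed as higher from 1 to 4 weeks and from 1 to 8 weeks, and with snoRNA202 alone miR-148a and miR-152 passed as lower from 1 to 4 weeks. From 1 to 8 weeks the values were 0.17, 0.21 and 0.08, with 24.1% of assays passing (40 assays, against 158 with U6 alone). That count fell steeply when some single cards were left out. With snoRNA202 alone the 3 values turned to -1.02, -0.98 and -1.11. From 4 to 8 weeks the values were 0.87 (95% interval 0.23 to 1.52, limma adjusted p = 0.188), -0.40 and 0.46, with 1.20% of assays passing.

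Over the 4 groups together, limma's F test passed for miR-148a (adjusted p = 0.0193) and miR-152 (adjusted p = 0.0468) and not for miR-148b (adjusted p = 0.399), with 54.2% of all assays passing. These are 90 assays, a count that fell with any card left out, steeply for some. miR-148b passed with the mean of 3 control RNAs (limma adjusted p = 0.0231), with U6 alone (2.89e-09) and with snoRNA202 alone. The call for miR-148a was lost when any of the untreated, 1-week or 4-week cards was left out (adjusted p 0.0519 to 0.0705), and that for miR-152 when any card but the first 8-week card was (0.0532 to 0.172). Other settings also ended them. The call for miR-148a was lost with the mean of 3 control RNAs (limma adjusted p = 0.0658), no normalization (0.213), Ct 40 for undetermined wells (0.0985) and snoRNA135 alone (0.0798). That for miR-152 was lost with the geometric mean (limma adjusted p = 0.107), arithmetic mean (0.106) or median (0.0590) of a card, quantile normalization (0.0568), the mean of 3 control RNAs (0.141), no normalization (0.331), Ct 40 for undetermined wells (0.166), and snoRNA135 (0.208) or snoRNA202 (0.0781) alone. A fit with a block for the replicate number ended the call for miR-152 as well.

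Treated cards were also compared with untreated cards as a whole, 6 against 2, with a two-sided exact permutation test of the 28 possible splits, whose smallest possible p is 0.0357. The mean centred value of miR-152 was lower by 0.95 on the log2 scale in treated cards, at -0.55 against 0.39 (6 of 6 cards below both untreated cards, exact p = 0.0357). That of miR-148a was 1.26 against 2.22, a difference of -0.97 with 6 of 6 cards below (exact p = 0.0714). miR-148b stood at -3.88 against -4.14, a difference of 0.25 (exact p = 0.464). Of all 166 assays, 16.3% had all 6 treated cards below both untreated cards. The contrast between miR-152 and miR-148a depended on the scaling. The test of miR-152 gave an exact p of 0.143 with the mean of 3 control RNAs, 0.179 with no normalization, and 0.107, 0.643 and 0.786 with snoRNA135, snoRNA202 and U6 alone. That of miR-148a reached an exact p of 0.0357 with the geometric mean, the arithmetic mean or the median of a card. Over the 6 alternative scalings its exact p ran from 0.0357 to 0.25, with differences of -1.425 to -0.68. With the 3 control RNAs taken singly its exact p ran from 0.0714 to 0.786, with differences of -0.89 to -0.30. The tests of the 3 members share the untreated cards and were not adjusted. Without either untreated card the test of miR-152 gave an exact p of 0.143, the smallest that 1 untreated card against 6 treated allows, and without the first 4-week, the second 4-week or the first 8-week card that of miR-148a gave 0.0476.

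Because 2 assays on 1 card share its RNA input, the distance between members on a card is the same under any scaling that shifts a whole card by 1 amount, which all scalings here but quantile normalization do. The Ct of miR-148b minus that of miR-148a was 6.59 and 6.13 on the untreated cards, 5.46 and 5.72 after 1 week, 4.55 and 4.00 after 4 weeks, and 5.83 and 5.27 after 8 weeks. Every treated card was below both untreated cards. The Ct of miR-148b minus that of miR-152 was 4.74 and 4.32 untreated, 3.36 and 4.05 after 1 week, 3.15 and 2.27 after 4 weeks, and 4.04 and 3.11 after 8 weeks, also with every treated card below. Between miR-152 and miR-148a the distance was 1.85 and 1.81 untreated, 2.10 and 1.67 after 1 week, 1.40 and 1.73 after 4 weeks, and 1.79 and 2.16 after 8 weeks, with treated cards on both sides. Since assays may amplify with unequal efficiency, these distances were compared between groups and not read as ratios of RNA.

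By the exact permutation test over 28 splits, the distance between miR-148a and miR-148b was lower by 1.22 in treated cards (exact p = 0.0714, 6 of 6 cards), that between miR-152 and miR-148b by 1.20 (exact p = 0.107, 6 of 6 cards), and that between miR-148a and miR-152 by 0.02 (exact p = 0.929, 4 of 6 cards). Of the 13695 pairs of tested assays, 26.2% had a distance that separated the treated from the untreated cards in 1 direction or the other. Without the second 1-week, the second 4-week or the first 8-week card, the test of miR-152 against miR-148b gave an exact p of 0.0476. A fit with limma's lmFit, with each card read against 1 member and added after the data were seen, tested single times over the other 165 assays. It used each assay's own spread over 4 residual degrees of freedom, without moderation, since the noise of the reference member enters every assay.

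At 4 weeks the distance of miR-148a from miR-148b differed from untreated by -2.09 on the log2 scale (SE 0.33, 95% interval -3.01 to -1.16), a ratio of 0.236 to untreated. This difference did not pass after adjustment (limma lmFit unadjusted p = 0.00338, adjusted p = 0.0747). The distance of miR-152 from miR-148b differed by -1.82 (SE 0.54, 95% interval -3.31 to -0.33) and did not pass either (limma lmFit unadjusted p = 0.0273, adjusted p = 0.117). Read against miR-148b at 4 weeks, 0 of the 165 other assays passed by limma's lmFit after adjustment, and 51 had an unadjusted p below 0.05, 38 of them lower. At 1 week the distances differed by -0.77 and -0.83 (limma lmFit adjusted p = 0.236 and 0.387), and at 8 weeks by -0.81 and -0.96 (limma lmFit adjusted p = 0.4996 and 0.530). Thus miR-148a and miR-152 passed the test against untreated at 4 weeks and miR-148b did not. A difference between the members passed at no time after adjustment over the 165 assays. That adjustment depends on the member the cards are read against. Read against miR-152 at 4 weeks, 54 of 165 assays passed by limma's lmFit after adjustment. The distances from miR-148b were adjusted only with the cards read against miR-148b. Between miR-148a and miR-152 the differences were 0.06 at 1 week (95% interval -0.59 to 0.70), -0.27 at 4 weeks (95% interval -0.91 to 0.38) and 0.15 at 8 weeks (95% interval -0.50 to 0.79).

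**Figure D2:**
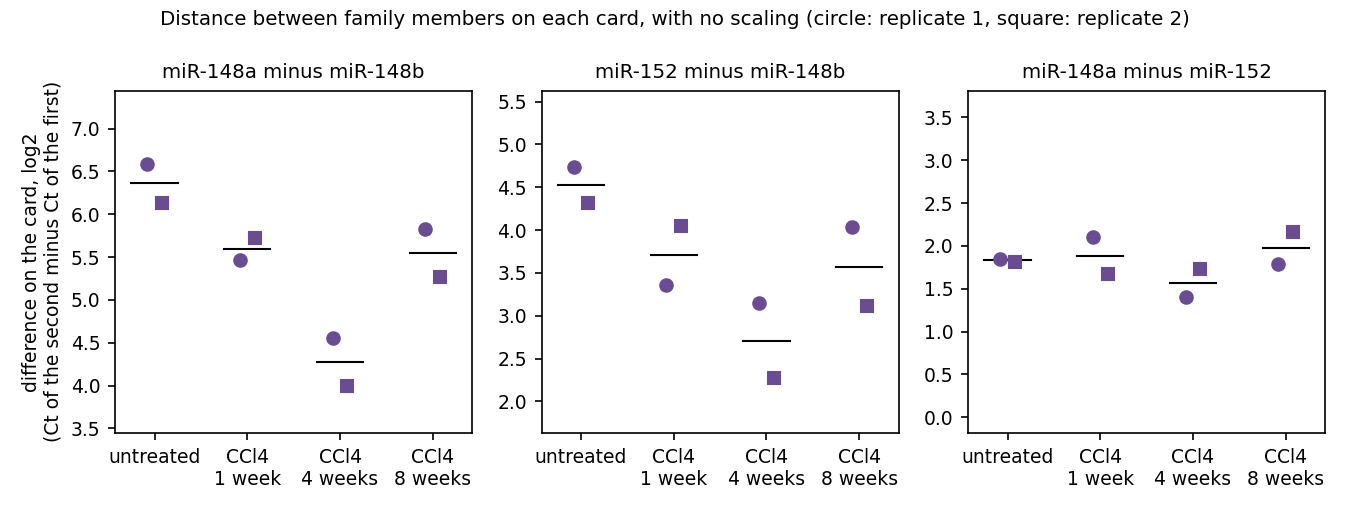
Distance between members on each card (vertical axis, log2, Ct of the second-named member minus Ct of the first-named) by group, with replicate 1 as a circle, replicate 2 as a square and the group mean as a line. The distances of miR-148a and miR-152 from miR-148b are smaller on every treated card than on either untreated card, and that between miR-148a and miR-152 is not.

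Of the 3 control RNAs used for scaling, U6 and snoRNA202 passed the test themselves. U6, a spliceosomal RNA often used as the reference, rose by 2.38 at 1 week (limma adjusted p = 0.00800) and fell by 1.50 at 4 weeks (limma adjusted p = 0.0417) on the centred scale. The small nucleolar RNA snoRNA202 fell by 1.39 at 1 week (limma adjusted p = 0.0139), and snoRNA135 showed differences of -0.27, -0.03 and -0.06 at the 3 times. With no normalization U6 stood at 1.86 and -2.35 at 1 and 4 weeks and snoRNA202 at -1.91 at 1 week, the same signs as on the centred scale. Centred on snoRNA135 alone, miR-148a stood at -0.52 at 1 week, -1.47 at 4 weeks and -0.57 at 8 weeks, and miR-152 at -0.57, -1.20 and -0.71. With snoRNA202 alone the 1-week values turned to 0.61 for miR-148a and 0.55 for miR-152. With U6 alone the 1-week values were -3.17 and -3.22, while the 8-week values turned to 0.49 and 0.35.

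**Figure D3:**
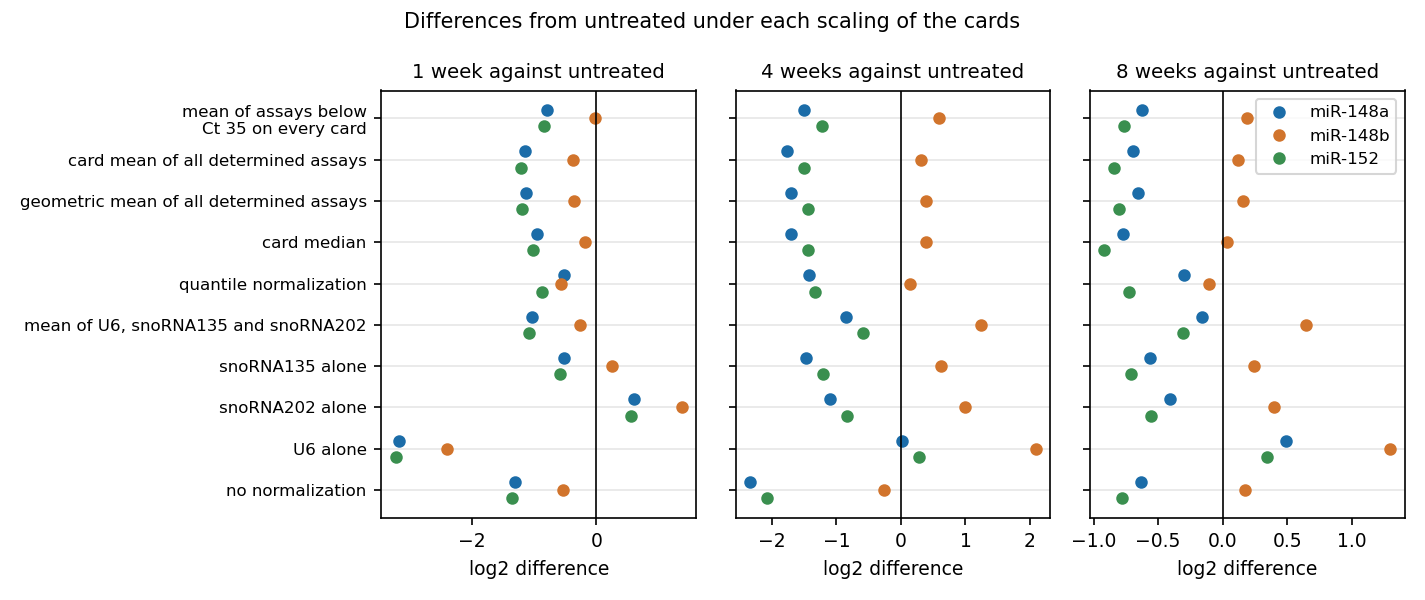
Log2 difference from untreated (horizontal axis) of the 3 members under 10 scalings of the cards (vertical axis), at 1, 4 and 8 weeks. miR-148a and miR-152 lie left of 0 at every time under every scaling except snoRNA202 alone at 1 week and U6 alone at 4 and 8 weeks. At 4 weeks they lie left of miR-148b, by a gap that is the same under all scalings but quantile normalization.

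Among the 166 assays, ranked from the lowest log2 difference, miR-148a stood at 49, 21 and 37 at 1, 4 and 8 weeks and miR-152 at 43, 31 and 30. miR-148b stood at 87, 113 and 98. The middle of all assays was near 0, with medians of -0.09, 0.03 and -0.04. At 4 weeks the lower quartile was -0.86 and the upper 0.75, so miR-148a and miR-152 lay below the lower quartile and miR-148b between the quartiles. At 1 week the quartiles were -0.85 and 0.88, and all 3 members lay between them.

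**Figure D4:**
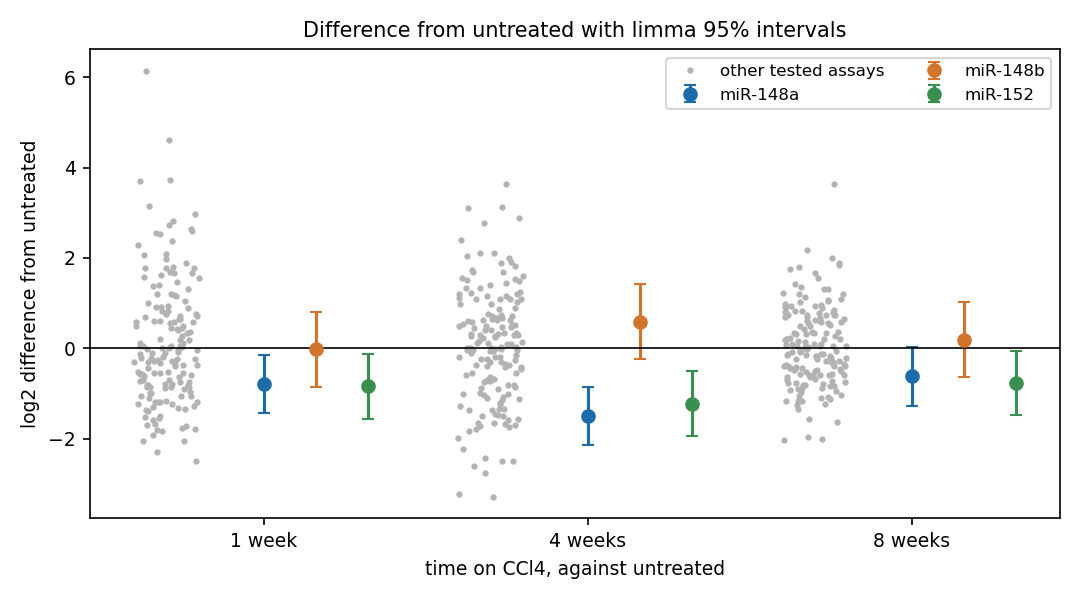
Log2 difference from untreated (vertical axis) at 1, 4 and 8 weeks for the 3 members, as points with limma's 95% intervals, and for the other 163 tested assays as grey points spread sideways. At 4 weeks the intervals of miR-148a and miR-152 end at -0.85 and -0.51, below 0, and that of miR-148b runs from -0.24 to 1.42.

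Across the 8 cards, which share their scaling, the centred values of miR-148a and miR-152 had a Pearson r of 0.91. That of miR-148a with miR-148b was -0.54 and that of miR-148b with miR-152 was -0.65. These correlations and those that follow hold over 8 cards in 4 groups, so that differences between the groups enter them. The assays most like miR-148a were miR-29a (r = 0.982), miR-107 (r = 0.952) and miR-185 (r = 0.950). Their 4-week log2 differences were -1.21, -2.61 and -1.67. Those most like miR-152 were let-7g (r = 0.982), miR-29c (r = 0.958) and miR-26b (r = 0.927), with 4-week differences of -1.49, -1.99 and -1.28. Those most like miR-148b were miR-532-3p (r = 0.877), miR-296-5p (r = 0.872) and miR-181a (r = 0.830), with 4-week differences of 1.34, 2.11 and 1.54.

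MicroRNAs that mark cell types also moved on these cards, and in RNA from whole liver fewer cells of a type and less RNA per cell cannot be told apart. All 4 hepatocyte markers were tested, and 1, 3 and 1 of them fell at 1, 4 and 8 weeks, when 14.5%, 16.9% and 0.602% of all assays passed as lower, with median log2 differences of -0.995, -2.62 and -1.22. Their summed level was 57.4% to 59.4% of the untreated mean on the 1-week cards, 34.0% to 38.2% at 4 weeks and 58.9% to 69.6% at 8 weeks. miR-802 had the lowest values of the 4 and fell at all 3 times (-1.72, -3.28 and -2.04, limma adjusted p = 0.00570, 0.000921 and 0.0123). miR-122, the highest, was at -1.20, -0.23 and 0.09 (limma adjusted p = 0.0949, 0.740 and 0.921). Since assays may amplify with unequal efficiency, a share of this or a later sum is an assay's weight in it and not a share of RNA. By weight the sum rests largely on miR-192, which carried 59.4% of it in untreated liver and had a 4-week log2 difference of -2.76 (limma adjusted p = 0.00455). Without miR-192 the summed level lay between 42.6% and 49.6% at 1 week, between 53.8% and 78.7% at 4 weeks and between 64.0% and 120% at 8 weeks. The part of these markers in the differences of the family was not tested.

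All 6 leukocyte markers were tested and 5, 4 and 0 of them rose, when 18.1%, 13.3% and 2.41% of all assays passed as higher, with medians of 1.80, 1.40 and 0.71. Their summed level lay between 410% and 494% of the untreated mean at 1 week, between 443% and 548% at 4 weeks and between 177% and 206% at 8 weeks. miR-223, a microRNA of myeloid cells, rose at 1 and 4 weeks (2.06 and 2.77, limma adjusted p = 0.00411 and 0.00168) and was at 1.22 at 8 weeks (limma adjusted p = 0.0792). miR-150, a microRNA of mature lymphocytes, rose at 1 week (1.97, limma adjusted p = 0.00513) and was at 0.13 and 0.02 later. Without miR-223, which carried 61.2% of the weight in the untreated sum, the summed level at 4 weeks was 175% to 239%. Whether these changes bear on the family was not tested.

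Of 7 mesenchymal markers, 6 were tested, and 1 fell at 1 week, 2 rose at 4 weeks and none passed at 8 weeks, beside 14.5% of all assays lower at 1 week and 13.3% higher at 4 weeks. The medians were 0.15, -0.01 and -0.01, and the summed level lay between 80.4% and 91.4% of the untreated mean at 1 week, between 109% and 130% at 4 weeks and between 99.6% and 113% at 8 weeks. miR-214, which is known from activated stellate cells, rose at 4 weeks (1.69, limma adjusted p = 0.0110). miR-10b fell at 1 week (-1.33, limma adjusted p = 0.0483). Both arms of the endothelial microRNA miR-126 fell at 4 weeks (-1.83 for the 3p arm and -1.65 for the 5p arm, limma adjusted p = 0.0142 and 0.0294), when 16.9% of all assays passed as lower. They passed at no other time. Their summed level, in which the 3p arm carries most of the weight, was 146% to 153%, 21.2% to 36.9% and 39.2% to 69.9% of the untreated mean. Of 3 erythroid markers, miR-451 and miR-486 were tested and neither passed at any time, with a summed level between 84.8% and 122% of the untreated mean on the treated cards. miR-486 carried 90.2% of the weight in the untreated sum, and miR-451 alone lay between 52.8% and 55.8% at 1 week, between 119% and 174% at 4 weeks and between 122% and 221% at 8 weeks.

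Other microRNAs reported to target DNA methyltransferases were listed because Dnmt1, a reported target of the family, is one of these enzymes. Of 9 listed, 8 were tested. At 1 week 2 fell and 1 rose, at 4 weeks 5 fell and 1 rose, and at 8 weeks none passed, with medians of -0.58, -1.44 and -0.66. Over all assays, 14.5% passed as lower and 18.1% as higher at 1 week, and 16.9% and 13.3% at 4 weeks. The summed level of the list was above the untreated mean at 1 week, at 130% to 134%, and below it at 4 weeks, at 29.6% to 42.3%, and at 8 weeks, at 48.3% to 71.0%. This direction depends on how the sum weights the assays. miR-126-3p alone carried 70.3% of the weight in the untreated sum. Without it the 1-week level was below the untreated mean, at 82.3% to 84.9%, with 50.5% to 55.4% at 4 weeks. miR-101a was the lowest on average, at -0.57, -2.23 and -1.58, and passed at 4 weeks (limma adjusted p = 0.0142). miR-342-3p, the highest, rose at 1 and 4 weeks (2.55 and 1.69, limma adjusted p = 0.00373 and 0.0134). Those that fell at 4 weeks also included miR-29a, miR-29c, miR-185 and miR-126-3p, of which 3 are named above among the assays most like a member.

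Other microRNAs reported to target Abca1 or the LDL receptor did not move together. Of 11 listed, 9 were on the card and 8 were tested, and miR-128a, with a Ct on 6 cards, was not. At 1 and 4 weeks alike 2 fell and 1 rose, and at 8 weeks none passed, with medians of 0.18, 0.37 and -0.005. Of 8 tested these counts are close to the shares over all assays, 14.5% lower and 18.1% higher at 1 week and 16.9% and 13.3% at 4 weeks. The summed level lay between 117% and 148% of the untreated mean at 1 week, between 185% and 199% at 4 weeks and near 109% on both 8-week cards. It was above the untreated mean through miR-223, without which it lay between 57.2% and 62.5% at 1 week, between 60.5% and 75.7% at 4 weeks and between 75.2% and 80.9% at 8 weeks. miR-27b fell by 1.54 and 1.09 (limma adjusted p = 0.00790 and 0.0238), and miR-26a by 1.06 and 1.01 (limma adjusted p = 0.0190 and 0.0213). The one that rose was miR-223, already given with the leukocyte markers.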

How the data were processed

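Total RNA from whole liver was reverse transcribed without pre-amplification and run on TaqMan Array Rodent MicroRNA A Cards, 2 cards in each of 4 groups. The authors deposited raw Ct values per assay and card, neither normalized nor pooled, with empty cells where no Ct was determined; the software that set the threshold is not given in the sources used here. A second deposited table holds the authors' fold changes against untreated and was not used. Every column of Ct values was matched to a sample by its label.

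Each card was centred on the mean Ct of 149 assays, those that stayed below Ct 35 throughout. The 166 assays with a Ct on every card and a mean Ct below 35 entered 1 linear model of all 8 cards, fitted by lmFit and moderated by eBayes (limma 3.58.1, R 4.3.3, with 3.47 prior degrees of freedom), and p-values were adjusted by Benjamini-Hochberg within each comparison at 0.05. Percent levels are 2 to the power of a centred value over the same power of the untreated mean centred value, and summed levels of a list are sums of such powers over its tested assays, relative to the untreated mean of the sum. Exact permutation tests used the 28 ways to choose 2 of 8 cards. The number of cards limits the precision. The moderated fit and the exact permutation test were tried on simulated data, and the unmoderated fit of distances between members was not. Sequences and positions are from RefSeq (GRCm38.p6), and plots were drawn with matplotlib 3.10.9.

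Members, lists and alternatives were chosen with earlier results of these data known, although the rule that takes the 3 members uses only assay names. Named assays are the 3 members, the 3 control RNAs, miR-122, the 3 assays most correlated with each member and, for each list, the assays with the highest and lowest mean difference. miR-29a, miR-29c, miR-185, miR-126-3p, miR-192 and miR-26a are further named in lists after their values were seen. Alternatives were other scalings of the card, a Ct limit of 32 or none, Ct 40 in place of undetermined values, the replicate block, a trend in eBayes, fits of only 2 groups and each card left out. The control RNAs taken singly, the crossed replicate numbers and the lmFit test of distances between members, unmoderated, were added after the data were seen.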

Additional observations from a re-analysis of the deposited data

How the results depend on the processing

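Each scaling but quantile normalization shifts all assays of a comparison by a common amount, and the median of the 166 tested assays moved with it, with extremes of -2.48 and 1.31 after 1 week, of -0.82 and 1.54 after 4 and of -0.19 and 1.09 after 8, against -0.09, 0.03 and -0.04. Direction and side of the threshold held in 222 of 260 results under the first set of alternatives, in 61 of 99 under those added later and in 255 of 288 with a card left out. The cause of the other values was not tested. These counts include results whose direction could not turn. The replicate block and a trend in eBayes leave a log2 difference unchanged. The results added later include distances between members, each with the same log2 difference under all its alternatives and none past the threshold. F tests have no direction, so only their side of the threshold was compared. The shares that held are therefore not read as a measure of robustness.

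With U6 alone, miR-148a, miR-148b and miR-152 stood at -3.17, -2.40 and -3.22 at 1 week (all past the threshold), 0.01, 2.10 and 0.28 at 4 weeks (miR-148b past it), and miR-148a and miR-152 at 0.49 and 0.35 at 8 weeks. From 1 to 4 weeks the 3 stood at 3.18, 4.49 and 3.50 and from 1 to 8 weeks at 3.66, 3.70 and 3.57, all past the threshold, and the F test of miR-148b passed (adjusted p = 2.89e-09). Any CCl4 gave -0.87 for miR-152 (exact p = 0.786). With snoRNA202 alone they stood at 0.61, 1.38 and 0.55 at 1 week, miR-148a and miR-152 at -1.10 and -0.84 at 4 weeks, and the 3 at -1.71, -0.39 and -1.39 from 1 to 4 weeks and -1.02, -0.98 and -1.11 from 1 to 8 weeks, with F tests at 0.0441 for miR-148b and 0.0781 for miR-152 and any CCl4 at -0.28 for miR-152 (exact p = 0.643). With snoRNA135 alone, miR-148b stood at 0.25 at 1 week, miR-152 at -1.20 at 4 weeks (limma adjusted p = 0.0819) and the 3 at -0.045, -0.005 and -0.14 from 1 to 8 weeks, with F tests at 0.0798 for miR-148a and 0.208 for miR-152 and any CCl4 at -0.83 for miR-152 (exact p = 0.107).

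With the mean of the 3 controls the 4-week values were -0.85, 1.23 (past the threshold) and -0.59, those from 1 to 4 weeks 0.18, 1.49 (past it) and 0.50, the F tests 0.0658, 0.0231 and 0.141, and any CCl4 -0.66 for miR-152 (exact p = 0.143). With no normalization the 4-week values were -2.34, -0.26 and -2.08, miR-148b stood at 0.43 from 4 to 8 weeks, the F tests of miR-148a and miR-152 were at 0.213 and 0.331, and any CCl4 gave -0.20 for miR-148b and -1.40 for miR-152 (exact p = 0.679 and 0.179). With undetermined values at Ct 40, miR-148a and miR-152 stood at -1.49 and -1.23 at 4 weeks, no longer past the threshold, with F tests at 0.0985 and 0.166. The geometric mean of all determined assays gave -1.44 for miR-152 at 4 weeks and an F test at 0.107, and the F test of miR-152 was also lost after centring on the arithmetic mean of every determined assay (0.106), on the median (0.0590) and by quantiles (0.0568). The geometric mean, arithmetic mean and median took the exact p of miR-148a under any CCl4 to 0.0357, at -1.16, -1.21 and -1.14. Quantile normalization put miR-148b at -0.11 at 8 weeks and -0.18 under any CCl4, and miR-148a past the threshold from 1 to 4 weeks (-0.91) and from 4 to 8 weeks (1.13). miR-148a also passed at 1 week (-0.79) with a mean Ct below 32 and with a trend, and with a trend from 1 to 4 weeks (-0.71). miR-148b, with a mean Ct of 32.5, has no value under the limit of 32.

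Leaving out each card gave -0.24 to 0.23 for miR-148b at 1 week, -1.33 to -1.15 for miR-152 at 4 weeks, -0.058 to 0.42 for miR-148b and -0.22 to 0.38 for miR-152 from 1 to 8 weeks, and F tests at 0.0270 to 0.0705 for miR-148a and 0.0394 to 0.172 for miR-152. Leaving out a card also gave 0.23 to 0.95 for miR-148b at 4 weeks, 0.02 to 0.36 for miR-148b at 8 weeks and -1.06 to -0.47 for miR-152 at 8 weeks. Under any CCl4 it gave -1.09 to -0.85 for miR-148a and -1.05 to -0.90 for miR-152. Distances at 4 weeks ran from -2.36 to -1.81 for miR-148a against miR-148b and -2.26 to -1.38 for miR-152 against miR-148b. That between miR-148a and miR-152 ran from -0.16 to 0.27 at 1 week, -0.04 to 0.33 at 8 weeks and -0.092 to 0.06 under any CCl4, and that between miR-152 and miR-148b from -1.41 to -0.99 under any CCl4. Where a card left out leaves 1 in its group, that card is assumed to vary like the others.

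Over 166 assays, the differences between replicates 1 and 2 correlated at 0.43 between 4 and 8 weeks, at -0.39 and -0.50 between untreated and 4 and 8 weeks, and at no more than 0.10 otherwise. Same-numbered cards thus deviated together in 4 and 8 weeks and in opposite ways against untreated, and the replicate numbers were not taken as pairs. With the replicate block, the F test of miR-152 was at 0.0647, and the counts of assays past the threshold were 50 at 1 week, 49 at 4 weeks and 4 at 8 weeks, against 54, 50 and 5. With the untreated numbers crossed they were 74, 65 and 17. The cause of these shifts was not tested. Counts fell to 5, 10 and 1 with no normalization and to 24, 3 and 0 with undetermined values at Ct 40, where 74, 69 and 33 had an unadjusted p below 0.05. With U6 alone they were 126, 82 and 40. The F test counted 90 assays, 14 with undetermined values at Ct 40 and 158 with U6 alone. Leaving out a card gave 17 to 59, 22 to 51 and 0 to 6.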
